A study of Mus musculus with 225 samples.

Results

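The 5 genes described here, *Scx*, *Mkx*, *Tnmd*, *Tnc* and *Fmod*, are genes of the tendon lineage and were chosen by name. They are 5 of the 23165 genes in the table of raw counts, and 4 of them are among the 10948 genes of the normalized table, which has no row for *Tnmd*. *Sox9*, the regulator of chondrogenesis, was followed beside them as a partner gene. The study sequenced single cells from embryonic day (E) 12.5 mouse forelimbs, from the autopod, the distal part in which digits form, and from the zeugopod, the future forearm. All cells of both tissues came from *Hoxd11::GFP* heterozygous embryos of the mixed C57Bl6CBAF1 background, in which a tau-GFP sequence is knocked in to *Hoxd11*. No embryo without the allele and no treatment was included. Cells with the brightest GFP were sorted before capture on a Fluidigm C1 chip, so shares refer to cells with high *Hoxd11* reporter signal and not to all cells of the tissue. The embryos were pooled and the labels do not give the embryo of a cell, so each tissue is 1 sample, cells were not used as replicates and no test between tissues was made.

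*Scx* encodes a basic helix-loop-helix factor that marks tendon progenitors from early stages, and *Mkx* encodes a homeobox factor needed for the growth of tendon fibres. *Tnmd*, a transmembrane glycoprotein, appears as tendon cells mature, whereas *Tnc*, a large extracellular glycoprotein, and *Fmod*, a small proteoglycan that binds collagen fibrils, belong to the tendon matrix and are also made elsewhere in the limb. Progenitors that carry both *Scx* and *Sox9* are known from the sites at which tendon attaches to cartilage.

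After the quality filter of the study, 76 of 96 autopod cells were retained, 59 of them from the run NXT0072 and 17 from NXT0143. The retained zeugopod cells were 58 of the 60 captured in NXT0142 and 65 of the 69 captured in NXT0143, so that only NXT0143 held both tissues. Shares of zeugopod cells are of these 58 and 65 cells together unless a run is named. Reads on genes ranged from 187344 to 9437447 per autopod cell and from 186271 to 6801278 per zeugopod cell. The median number of genes with a read was 3684 for autopod and 3995 for zeugopod cells. A gene was scored in a cell at 5 or more reads, and reads without molecular identifiers are not independent molecules. Shares are given with exact (Clopper-Pearson) 95% intervals. These intervals cover error in counting cells only and no difference between embryos, since the embryos were pooled.

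In the GENCODE annotation of GRCm38, *Scx* (ENSMUSG00000034161) lies on the plus strand at chr15:76457452-76459458, inside *Bop1* on the opposite strand, with no overlap between their exons. The library kit does not keep strand, so reads from *Bop1* introns could not be told apart from *Scx* reads. *Bop1* itself was scored in 8 of 35 zeugopod cells with *Scx* (22.9%) and in 13 of 88 without (14.8%). *Tnmd* (ENSMUSG00000031250) lies at chrX:133850980-133865577 on the plus strand, and *Fmod* (ENSMUSG00000041559) at chr1:134037254-134048277 on the plus strand. *Tnc* (ENSMUSG00000028364) lies at chr4:63959785-64047015 on the minus strand and overlaps the gene 8030451A03Rik on the plus strand. *Mkx* is ENSMUSG00000061013.

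*Scx* protein, like other basic helix-loop-helix factors, binds the E-box, whose letters are CANNTG. The 250 bases upstream of the RefSeq start (GRCm38.p6) are shown for the 3 genes that had a window, *Tnmd*, *Tnc* and *Fmod*, as context for their detection in cells with and without *Scx*, with each CANNTG match in capitals. The *Tnmd* window is chrX:133850758-133851007, plus strand, and its RefSeq start lies 28 bases from the GENCODE start. The *Tnc* window is chr4:64047016-64047265, minus strand, and the *Fmod* window is chr1:134037004-134037253, plus strand.
Tnmd: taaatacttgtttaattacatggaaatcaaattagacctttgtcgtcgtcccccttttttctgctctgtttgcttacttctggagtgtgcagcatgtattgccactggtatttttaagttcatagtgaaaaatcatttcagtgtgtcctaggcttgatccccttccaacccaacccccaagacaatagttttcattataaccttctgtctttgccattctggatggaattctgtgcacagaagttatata
Tnc: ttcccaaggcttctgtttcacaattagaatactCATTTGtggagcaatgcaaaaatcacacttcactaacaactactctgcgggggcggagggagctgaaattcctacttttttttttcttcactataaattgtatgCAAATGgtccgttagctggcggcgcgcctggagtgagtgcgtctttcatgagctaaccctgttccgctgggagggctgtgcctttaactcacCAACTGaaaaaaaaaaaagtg
Fmod: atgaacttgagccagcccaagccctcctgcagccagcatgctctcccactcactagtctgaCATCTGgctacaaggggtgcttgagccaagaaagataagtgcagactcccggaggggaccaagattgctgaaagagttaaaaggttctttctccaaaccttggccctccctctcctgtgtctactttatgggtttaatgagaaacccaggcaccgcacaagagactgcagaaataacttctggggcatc
The *Tnmd* window held 0 matches. The *Tnc* window held 3 matches, and the *Fmod* window held 1. CANNTG reads the same on both strands, so a single search covers both. Of 27025 upstream windows of the same length, 66% held at least 1 match and 12.1% held at least 3. A match is a run of letters and was not measured as a bound site.

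All 5 genes were scored in a larger share of zeugopod than of autopod cells. The median over all genes scored in a retained cell had the same direction, at −0.81 percentage points, autopod minus zeugopod. Over all runs, the intervals of the 2 tissues did not overlap for *Scx*, *Tnc* and *Fmod*, with the autopod interval wholly below. The same held for 3.64% of the 16664 genes with 5 or more reads in at least 1 retained cell, while 1.15% had the autopod interval wholly above. Among the 8986 genes that reached 5 reads in 10% or more of the cells of a tissue, these shares were 6.69% and 2.09%. Their median difference in share was −2.52 points. *Scx*, *Mkx*, *Tnc* and *Fmod* passed this filter and *Tnmd* did not. Those that passed did so through the zeugopod alone, where they are high, so their intervals are not read against that background. The intervals of *Mkx* and *Tnmd* overlapped between the tissues.

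The regulator *Scx* was scored in 6 of 76 autopod cells, 7.89% (2.95% to 16.4%), and in 35 zeugopod cells, 28.5% (20.7% to 37.3%). Within NXT0143, the run with both tissues, *Scx* was scored in 2 of 17 autopod cells, 11.8% (1.46% to 36.4%), and in 18 of 65 zeugopod cells, 27.7% (17.3% to 40.2%), and these intervals overlapped. The zeugopod share was close between the runs, with 17 of 58 cells (29.3%) in NXT0142. A further 19 zeugopod cells held 1 to 4 *Scx* reads, more than for any other of the 5 genes. *Mkx* was scored in 5 of 76 autopod cells, 6.58% (2.17% to 14.7%), and in 20 zeugopod cells, 16.3% (10.2% to 24%). The zeugopod share of *Mkx* was 7 of 58 cells (12.1%) in NXT0142 and 13 of 65 (20%) in NXT0143. In contrast with *Scx*, only 1 zeugopod cell held 1 to 4 *Mkx* reads.

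*Tnmd*, the marker of maturing tendon cells, was scored in 0 of 76 autopod cells, for which the exact interval ended at 4.74% and 3 cells would make 3.95%, and in 2 zeugopod cells, 1.63% (0.198% to 5.75%), with 1 cell in each zeugopod run. Both cells were far above the threshold, with 5294 and 2313 *Tnmd* reads, or 1877 and 604 reads per 1000000 reads on genes (CPM). The cell with 5294 reads held 1 *Scx* read, none of the other 3 genes at 5 reads, and no *Sox9* read. The cell with 2313 reads also held 1847 *Mkx* reads and 5458 *Tnc* reads, and had no *Scx* and no *Sox9* read. Both *Tnmd* cells were thus below the threshold for *Scx*, and only 1 other zeugopod cell held a *Tnmd* read.

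Of the matrix genes, *Tnc* was scored in 2 of 76 autopod cells, 2.63% (0.320% to 9.18%), and in 41 zeugopod cells, 33.3% (25.1% to 42.4%). Both autopod cells with *Tnc* came from NXT0072, and 0 of 17 autopod cells of NXT0143 had it. The zeugopod share was 19 of 58 cells (32.8%) in NXT0142 and 22 of 65 (33.8%) in NXT0143. Within NXT0143 the interval of the zeugopod, 22.6% to 46.6%, lay above that of the autopod, which for 0 of 17 cells ended at 19.5%. *Fmod* was scored in 0 of 76 autopod cells, with the same limits, and in 13 zeugopod cells, 10.6% (5.75% to 17.4%), 7 in NXT0142 and 6 in NXT0143. Within NXT0143 the intervals of *Fmod* overlapped. They were 3.46% to 19.02% for 6 of 65 zeugopod cells, and ended at 19.5% for 0 of 17 autopod cells. In order of zeugopod share the genes were *Tnc*, *Scx*, *Mkx*, *Fmod* and *Tnmd*, and the intervals of each pair of neighbours overlapped, those of *Fmod* and *Tnmd* only at their ends.

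*Sox9* had the opposite distribution. It was scored in 72 of 76 autopod cells, 94.7% (87.1% to 98.5%), and in 79 zeugopod cells, 64.2% (55.1% to 72.7%), with 36 of 58 cells in NXT0142 and 43 of 65 in NXT0143.

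**Figure D1:**
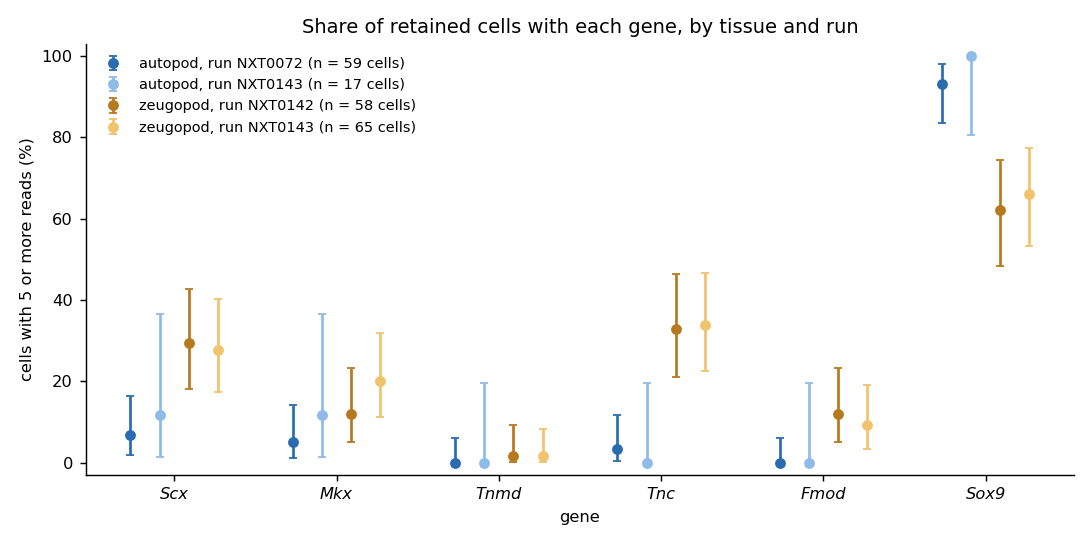
Share of retained cells (%, y axis) with 5 or more reads of each tendon gene and of *Sox9* (x axis), as points for each tissue and run with exact 95% intervals as bars. The points of both zeugopod runs for *Scx* (29.3% and 27.7%) and *Tnc* (32.8% and 33.8%) sit above those of both autopod runs, and the order of the tissues is turned for *Sox9*.

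Among the cells in which a gene was scored, its level spread widely. In CPM, *Scx* ranged from 1.81 to 738 over 35 zeugopod cells, with a median of 41.8. The 6 autopod cells with *Scx* had 3.61, 8.65, 37.7, 59.98, 137 and 407 CPM, all within the zeugopod range. *Mkx* ranged from 2.40 to 2711 CPM over 20 zeugopod cells, with a median of 117.03, and a single cell carried 39.8% of the summed CPM. The 5 autopod cells with *Mkx* had 11.3, 40.5, 44.4, 54 and 70.9 CPM. The zeugopod median was 20.7 CPM over the 7 cells of NXT0142 and 143.3 CPM over the 13 cells of NXT0143, so the autopod cells lay below that of NXT0143 and all but the lowest above that of NXT0142.

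*Tnc* ranged from 1.95 to 2876 CPM over 41 zeugopod cells, with a median of 138. Its median was 70.5 CPM over the 19 cells of NXT0142 and 357 CPM over the 22 cells of NXT0143. The 2 autopod cells with *Tnc* had 12.5 and 17.6 CPM, from 43 and 26 reads. *Fmod* ranged from 8.01 to 1875 CPM over 13 zeugopod cells with a median of 438. Genes can be compared with each other only per length, on the scale of the normalized table, and there the medians over zeugopod cells with the gene were 184 for *Fmod*, 115.01 for *Scx*, 68.9 for *Mkx* and 59.8 for *Tnc*. The order differed between the runs. In NXT0142 the medians were 668 for *Fmod*, 115.01 for *Scx*, 29.5 for *Mkx* and 21.1 for *Tnc*, and in NXT0143 they were 180.4 for *Tnc*, 128.18 for *Scx*, 118.6 for *Fmod* and 88.9 for *Mkx*. The ranges over cells overlapped for every pair of these genes.

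**Figure D2:**
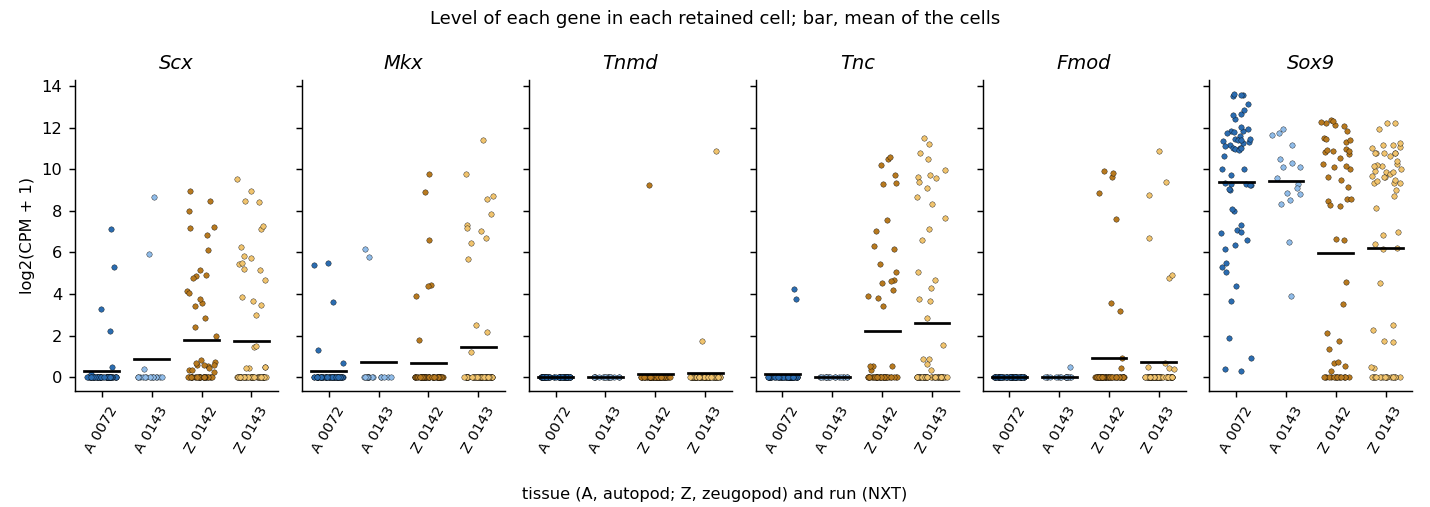
Level of each tendon gene and of *Sox9* in each retained cell, as log2(CPM + 1) on the y axis, by tissue and run on the x axis, with 1 point per cell and a bar at the mean. Most cells sit at 0 for the tendon genes, and the cells above 0 spread over much of the scale, up to 2876 CPM for *Tnc*.

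The difference between the tissues was next taken over all retained cells, as the mean of log2(normalized value + 1) in the autopod minus that in the zeugopod. This scale understates changes of low genes, and it cannot separate fewer cells with a gene from less RNA per cell. *Tnc* was lower in the autopod by a difference of −1.84, and *Scx* by a difference of −1.26. Both were among the 4898 genes that reached 5 reads in 25% or more of the cells of a tissue, of which 13.4% were lower in the autopod by at least 1 and 6.06% were higher by at least 1, with a median of −0.12. Both passed this filter through the zeugopod alone, where they are high, so their calls are not read against that background. In CPM, which uses no spike-ins, the differences were −2.31 for *Tnc* and −1.32 for *Scx*. *Mkx* (−0.61), *Fmod* (−0.75) and *Tnmd* (−0.18, in CPM) were not scored in enough cells to pass that filter. Within NXT0143 the difference was −1.997 for *Tnc* and −0.74 for *Scx*, so that *Scx* no longer reached 1 there. In that run 9.21% of genes were lower and 18.4% higher by at least 1 and the median was 0.18. Between NXT0072 and NXT0142 the differences were −1.71 for *Tnc* and −1.56 for *Scx*, against 24.3% of genes lower and 6.64% higher by at least 1 and a median of −0.34. *Fmod* and *Mkx* were below 0 in both run comparisons, *Fmod* at −0.61 and −0.90 and *Mkx* at −0.63 and −0.38. The difference of *Sox9* was 3.14.

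Other genes of the tendon programme were taken from 3 lists. Of 20 further tendon matrix genes, 12 passed the filter, and of these 9 were lower in the autopod by at least 1 and 0 were higher by at least 1, with a median of −1.85. Over all 4898 genes that passed, 13.4% were lower by at least 1 and 6.06% higher. The fibrillar collagens *Col1a1* (−4.39) and *Col3a1* (−3.88) had the largest differences, and *Col12a1* (−0.11) and *Col5a2* (−0.37) the smallest. Of these 9, *Col6a1*, *Col6a3*, *Dcn*, *Lum* and *Ogn* passed the filter through the zeugopod alone, where they are high, so the filter favoured their calls. Without the filter, all 17 list genes of the normalized table were below 0 over all runs. Their median was −1.42, against −0.04 over all 10948 genes. In the run comparisons some list genes were above 0, *Col12a1* (0.30) within NXT0143, and *Col5a2* (0.21) and *Bgn* (0.08) between NXT0072 and NXT0142. Within NXT0143 9 list genes were lower by at least 1, against 9.21% of the 4898 genes, with *Col5a1* (−0.96) dropping out and *Col5a2* (−1.33) entering. These collagens and proteoglycans are made by most connective tissue cells, and *Col1a1* was scored in 120 zeugopod cells, so the list is not specific to tendon.

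Regulators and signals of tendon formation gave no single direction. Of 17 genes, 10 passed the filter, with 2 lower in the autopod by at least 1, *Tgfb2*, a transforming growth factor β ligand (−1.99), and *Spry2*, a feedback inhibitor of receptor tyrosine kinase signalling (−1.53). A further 3 were higher by at least 1, the fibroblast growth factor receptor *Fgfr2* (2.19), the zinc finger factor *Egr1* (1.82) and *Smad4* (1.20), and the median was 0.35. Within NXT0143 none of the 10 was lower by at least 1, *Tgfb2* being at −0.39 and *Spry2* at 0.28. There *Fgfr2*, *Egr1* and *Fgfr1* (1.21) were higher by at least 1, and *Smad4* was at 0.39. Of 6 genes of joint and muscle connective tissue, 4 passed, and *Tbx5* (−2.63), *Osr1* (−2.24) and *Osr2* (−1.68) were lower by at least 1, *Osr1* and *Osr2* having passed through the zeugopod alone. Within NXT0143 the difference of *Tbx5* was 0.20, *Osr1* (−1.45) alone was lower by at least 1, and *Tcf7l2*, a marker of muscle connective tissue, was higher (2.11).

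**Figure D3:**
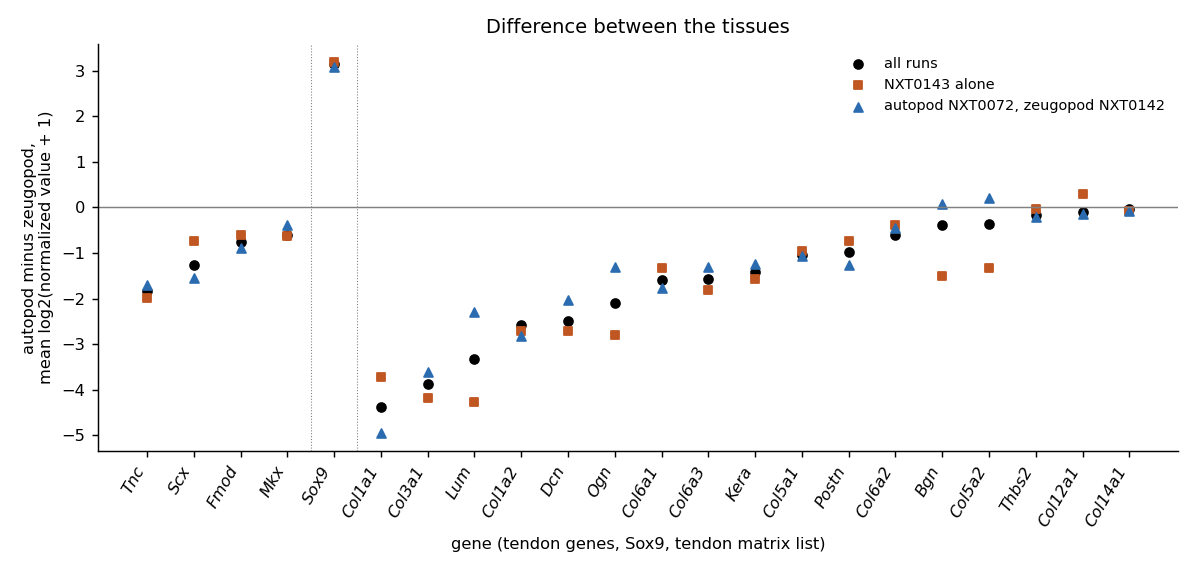
Difference between the tissues, autopod minus zeugopod, in mean log2(normalized value + 1) on the y axis for 4 tendon genes, *Sox9* and the tendon matrix list on the x axis, over all runs (circles), within NXT0143 (squares) and between NXT0072 and NXT0142 (triangles). The 4 tendon genes lie below 0 in all 3 comparisons, with *Tnc* at −1.84 over all runs, and *Sox9* lies at 3.14.

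Co-detection with *Sox9* could be followed in the zeugopod, where 79 cells had *Sox9* and 44 did not. *Scx* was scored in 27 of 79 cells with *Sox9*, 34.2% (23.9% to 45.7%), and in 8 of 44 cells without it, 18.2% (8.19% to 32.7%), a gap of 16 percentage points. The gap had the same direction in NXT0142 (13 of 36 against 4 of 22 cells) and in NXT0143 (14 of 43 against 4 of 22 cells). It depended on depth and threshold, since it was 12.9 points at 10 or more reads and 6.16 points with every cell thinned to 500000 reads (21 of 74 against 10 of 45 cells). *Fmod* went the other way, with 4 of 79 cells with *Sox9*, 5.06% (1.40% to 12.5%), and 9 of 44 cells without it, 20.5% (9.80% to 35.3%). Its gap was −15.4 points, and it was lower in cells with *Sox9* in both runs, with 1 of 36 against 6 of 22 cells in NXT0142 and 3 of 43 against 3 of 22 cells in NXT0143, where the gap was −6.66 points. With thinned cells it was −12.4 points. The intervals of cells with and without *Sox9* overlapped for all 5 genes, and were apart for 0.892% (lower in cells with *Sox9*) and 0.482% (higher) of 8298 genes with 5 or more reads in at least 10% of zeugopod cells.

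*Tnc* was scored in 23 of 79 cells with *Sox9* (29.1%) and in 18 of 44 cells without it (40.9%), a gap of −11.8 points that was −20.5 in NXT0142, −3.81 in NXT0143 and −7.18 with thinned cells. *Mkx* was almost even, with 13 of 79 (16.5%) and 7 of 44 cells (15.9%), and its gap changed sign between the runs. Both *Tnmd* cells lacked *Sox9*. Over the 8298 genes, a gap of at least 15 points, a limit chosen after the values were seen, was found for 2.63% in the direction of *Scx* and for 7.47% in the direction of *Fmod*, and the median gap was −1.73 points. Cells with *Sox9* had a median of 3919 genes with a read and those without it 4217, and the part of this difference in the gaps was not tested.

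The gaps of most tendon matrix genes had the direction of *Fmod* and not that of *Scx*. Of the 15 genes of that list that could be compared, 11 were scored at least 15 points less often in cells with *Sox9* and 0 at least 15 points more often. Over the 8298 genes these shares were 7.47% and 2.63%. The median gap of the list was −19.8 points, against −1.73 points over the 8298 genes. The small proteoglycans *Dcn* (−32.3 points), *Lum* (−25.7) and *Ogn* (−25.5) had the largest gaps, and 13 of the 15 were below 0 in each run. The chondrogenic list, whose other genes are known partners or targets of *Sox9*, gave a median gap of 38.5 points over 5 genes, 4 of them at least 15 points more often scored with *Sox9*. In the autopod, where only 4 cells lacked *Sox9*, all 6 cells with *Scx* and all 5 cells with *Mkx* had *Sox9*. Both autopod cells with *Tnc* lacked it, with 4 and 1 *Sox9* reads, below the threshold.

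**Figure D4:**
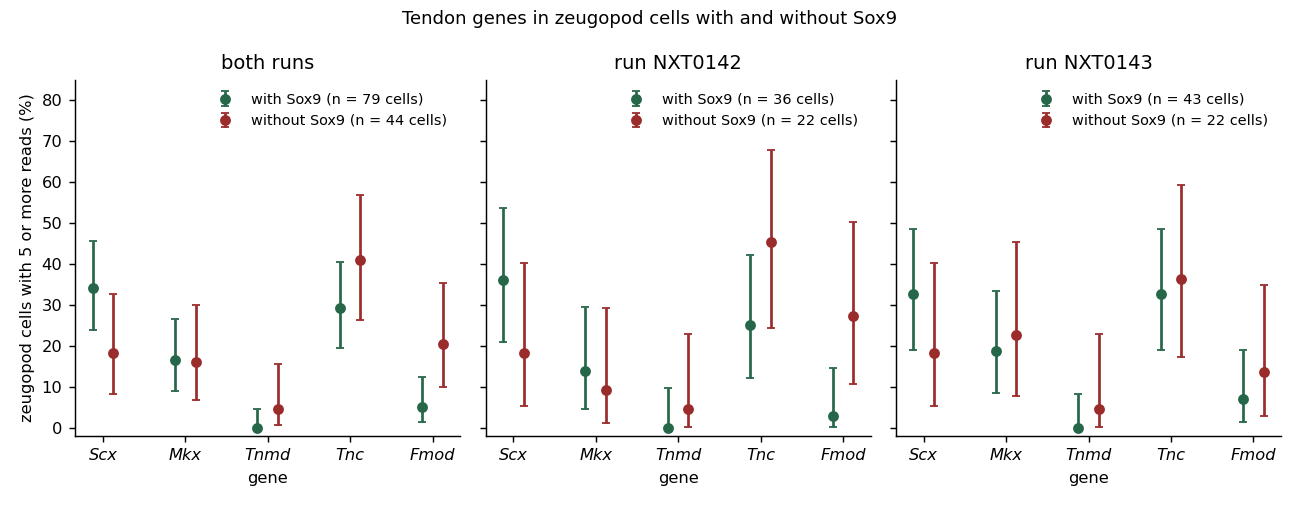
Share of zeugopod cells (%, y axis) with 5 or more reads of each tendon gene (x axis) among cells with *Sox9* (green) and without it (red), with exact 95% intervals as bars, over both runs (79 and 44 cells) and in each run. *Scx* is more often scored with *Sox9* (34.2% against 18.2%) and *Fmod* less often (5.06% against 20.5%) in both runs, with overlapping intervals over both runs.

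At least 1 of the 5 genes was scored in 72 zeugopod cells, 58.5% (49.3% to 67.3%), at least 2 in 32 cells, 26% (18.5% to 34.7%), and at least 3 in 6 cells. In the autopod, 11 of 76 cells had at least 1, 14.5% (7.45% to 24.4%), and 2 cells had 2, *Scx* with *Mkx* in both. The 5 genes were never scored together in a cell. The most frequent states of zeugopod cells after none of the genes (51 cells) were *Tnc* alone (15 cells), *Scx* alone (14 cells) and *Scx* with *Tnc* (14 cells). *Sox9* was present in 11 of the 14 cells with *Scx* alone, in 11 of the 14 with *Scx* and *Tnc*, and in 7 of the 15 with *Tnc* alone.

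**Figure D5:**
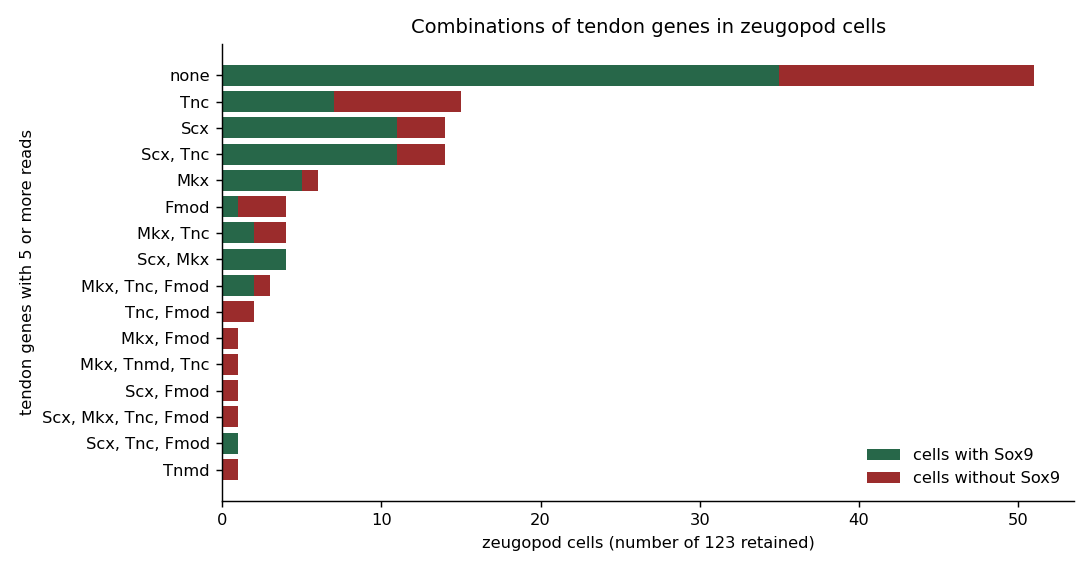
Number of retained zeugopod cells (x axis) with each combination of tendon genes (y axis), split into cells with *Sox9* (green) and without it (red). Of the 72 cells with a tendon gene, 40 had exactly 1.

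Among zeugopod cells with *Scx*, *Tnc* was scored in 16 of 35, 45.7% (28.8% to 63.4%), against 25 of 88 cells without *Scx*, 28.4% (19.3% to 39%), a gap of 17.3 points. The runs differed here. In NXT0142 *Tnc* was scored in 10 of 17 cells with *Scx* and in 9 of 41 without, a gap of 36.9 points, whereas in NXT0143 it was 6 of 18 against 16 of 47, a gap of −0.71 points. Scored at 1 read the pooled gap was 8.21 points. The pooled gap thus rested on NXT0142, which held 10 of the 14 cells with *Scx* and *Tnc* alone. A gap of at least 15 points in this direction was found for 6.09% of 8298 genes and in the other for 1.99%, with a median of 1.46 points.

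*Mkx* was scored in 5 of 35 cells with *Scx* (14.3%) and in 15 of 88 without (17%), and *Fmod* in 3 of 35 (8.57%) and 10 of 88 (11.4%). Both gaps were within 3 points of 0 and changed sign between the runs. With thinned cells they were −9.46 points for *Mkx* and −4.91 points for *Fmod*. All intervals of cells with and without *Scx* overlapped for the other 4 genes, against 0.253% (higher with *Scx*) and 0.121% (lower) of genes whose intervals were apart. Of the 15 tendon matrix genes, 0 reached a gap of 15 points in either direction, and the median gap was −0.10 points. *Sox9* was scored in 27 of 35 cells with *Scx* (77.1%) and in 52 of 88 without (59.1%). Of 6 chondrogenic genes that could be compared, *Sox9* among them, 1 was at least 15 points higher with *Scx* and 1 at least 15 points lower. Over the 8298 genes these shares were 6.09% and 1.99%. The median gap of the list was −5.06 points, with 3 genes below 0 in NXT0142 and 5 in NXT0143. The lower gene was *Acan*, the main proteoglycan of cartilage matrix, scored in 1 of 35 cells with *Scx* (2.86%) and in 16 of 88 without (18.2%). The gap of *Acan* was −3.87 points in NXT0142 (1 of 17 against 4 of 41 cells) and −25.5 points in NXT0143 (0 of 18 against 12 of 47). Where *Sox9* was scored, its median level was 915 CPM in cells with *Scx* and 1126 CPM in cells without. Cells with and without *Scx* had medians of 4012 and 3984 genes with a read.

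The zeugopod cells were also split by *Fmod*, a split chosen after values were seen. Of the 15 tendon matrix genes, 6 were scored at least 15 points more often in the 13 cells with *Fmod* and 0 at least 15 points less often, with a median gap of 11.6 points. *Dcn* was scored in 9 of 13 cells with *Fmod* and in 27 of 110 without, a gap of 44.7 points, and *Ogn* in 8 of 13 and 25 of 110, a gap of 38.8 points. In each run both gaps were above 0, with 53.8 and 36.2 points for *Dcn* and 45.4 and 34.5 points for *Ogn*. Gaps of at least 15 points were common in this split, which had only 13 cells on 1 side. Of the 8298 genes, 17.1% were at least 15 points higher in cells with *Fmod* and 6.85% at least 15 points lower. How many genes reached the gaps of *Dcn* and *Ogn* was not counted.

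*Mkx* was scored in 5 of 13 cells with *Fmod* and in 15 of 110 without, and *Tnc* in 7 of 13 and 34 of 110. The gap of *Mkx* was 24.8 points, made up of 2.52 points in NXT0142 and 51.4 points in NXT0143. Of the chondrogenic genes, 4 of 6 were at least 15 points less often scored with *Fmod*, *Sox9* (4 of 13 against 75 of 110 cells), *Sox5*, *Sox6* and *Col9a1*. *Osr1*, a factor of muscle connective tissue, was scored in 9 of 13 cells with *Fmod* and in 38 of 110 without, and *Egr1* in 13 of 13 and 74 of 110. In the same list as *Osr1*, the joint marker *Gdf5* went the other way, with 0 of 13 and 18 of 110 cells, and the median gap of that list was 0.21 points.

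In splits by *Mkx* or *Tnc*, likewise chosen after values were seen, fewer of the matrix genes reached that gap. In the 20 cells with *Mkx*, 2 of the 15 matrix genes were at least 15 points more often scored, *Ogn* (50% against 22.3%) and *Col5a1* (70% against 50.5%), against 9.94% of the 8298 genes, of which 5.05% were at least 15 points lower. In the 41 cells with *Tnc*, 1 of the 15 was, *Lum*, with a gap of 23.2 points, against 3.54% of genes higher and 2.24% lower by that much.

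The cells with tendon genes were next set against marker lists of other cell types. A cell was counted as chondrogenic with at least 3 of 7 markers, and 51 of 76 autopod and 55 zeugopod cells were. Of zeugopod cells with the gene, 15 of 35 were chondrogenic for *Scx*, 16 of 41 for *Tnc*, 10 of 20 for *Mkx*, 2 of 13 for *Fmod* and 0 of 2 for *Tnmd*. Of cells without *Fmod*, 53 of 110 were. The muscle, epithelium and endothelium lists, which needed 3 markers, and the macrophage list, which needed 2, each counted 0 cells in both tissues. At least 1 muscle marker was scored in 15 zeugopod and 2 autopod cells, and at least 1 epithelium marker in 17 and 2. For endothelium these were 4 and 1 cells, and for macrophage 18 and 3. Of the muscle markers, *Myod1*, *Myog* and *Myf5* were scored in no cell and *Actc1* in no zeugopod cell, so the 15 zeugopod cells held *Pax7*. Of the 4 blood markers only 1 was matched in the table, so that list gave no count. Limb mesenchyme, with at least 3 of 5 markers, counted 28 cells in each tissue. The cell cycle list counted 18 autopod and 23 zeugopod cells.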

How the data were processed

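Single-cell libraries were made by the authors with the SMARTer v2 and Nextera XT kits, mapped with Bowtie2 to mm10 and counted per GRCm38 gene. The deposited counts are whole reads per gene. The deposited normalized signal is the count scaled by a spike-in size factor (centred on the mean of its run) and by the length of the gene, on a linear scale. All zero counts in it sat at a floor set by length (100%). The 92 spike-in rows of the raw counts do not follow the column names and were not used directly. The size factors behind the normalized values did follow the spike-in reads the study lists for each cell. No per-sample column was left unused (0), and 0 retained cells had identical columns. Cells were grouped by tissue and run from the labels, and no doublets were called.

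CPM was computed per 1000000 reads on genes. Shares used 5 or more reads with exact binomial 95% intervals, a count of 0 was given the share that 3 cells would make, and levels used log2(normalized value + 1). Alternatives were 1 or 10 reads, a normalized value of 5, thinning to 500000 reads (seed 42), at least 1000000 reads, all cells, single runs, pseudocounts of 0.1 and 10, and CPM. Named genes were the 5 genes, *Sox9*, the extremes of the lists and the 3 genes of highest rank correlation with each tendon gene scored in at least 20 zeugopod cells. Genes outside the extremes and the 15-point limit were chosen after values were seen. The genes and lists were chosen with earlier results of these data known. Calculations were tested on simulated data. Positions came from GENCODE, and promoter windows from RefSeq (GRCm38.p6). Python 3.11.15, numpy 2.4.6, pandas 2.3.3, scipy 1.17.1 and matplotlib 3.10.9 were used.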

Additional observations from a re-analysis of the deposited data

Results flagged for a closer look

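Of the 20 autopod cells that did not pass the quality filter of the study, 4 had *Sox9* at 5 or more reads, which was above the limit of 15% that a count of 0 allows. None of the 5 tendon genes was scored in any of these 20 cells, nor in the 6 zeugopod cells that did not pass, of which 1 had *Sox9*. The depth of these cells differs from that of the retained cells, and its part in these counts was not tested.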

How the results depend on the processing

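Of 78 recalculated shares of cells, 3 moved outside the interval of the reported share. The zeugopod share with *Scx* became 43.9% at 1 read, and the autopod share with *Tnc* became 0% when scored at a normalized value of 5, and in NXT0143 alone. Of 24 recalculated tissue differences all kept their sign and 4 moved by more than 0.5. *Scx* was at −0.73 with a pseudocount of 10 and at −0.74 in NXT0143, and *Tnc* at −2.54 with a pseudocount of 0.1 and at −1.004 with 10. Without the filter, 685 of 10948 genes were lower in the autopod by at least 1 (6.26%) and 310 higher (2.83%), against 655 and 297 of 4898. Of 25 recalculated gaps by *Sox9*, that of *Scx* was 17.4 points at 1 read, 12.9 at 10 reads and 6.16 after thinning, and that of *Mkx* turned to −0.097 points at 1 read and to −4.12 points in NXT0143. Of 16 recalculated gaps by *Scx*, 4 changed sign. These were *Mkx* (7.89 points in NXT0142), *Tnmd* (2.25 points at 1 read), *Tnc* (−0.71 points in NXT0143) and *Fmod* (10.3 points in NXT0143), and *Fmod* was at −17.1 points in NXT0142. The cause was not tested. Of 36 recalculated rank correlations, 8 moved by at least 0.1 and none changed sign. *Tnmd* has no row in the normalized table, so no setting with normalized values was run for it. No paired analysis was possible because no result came from a test, and numbers shared by autopod and zeugopod cells are only names.

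The labels give no embryo per cell, and differences between embryos were not measured here. The 17 autopod cells of NXT0143 limit the comparison within that run, and the exact interval of 0 of them ends at 19.5%.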

Other observations

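The genes whose levels were most like those of *Scx*, *Mkx* and *Tnc* across zeugopod cells were taken from 4304 genes with 5 or more reads in at least 25% of these cells, by Spearman's coefficient of log2(CPM + 1) over the zeugopod cells of both runs. The coefficients are descriptions over cells of 1 pool, all were low, and no p-value was computed. For *Scx* the highest was *Nfia*, a transcription factor of the nuclear factor I family, at 0.386, with 0.177 in NXT0142 and 0.475 in NXT0143. It was followed by *Asb4* (0.305, with 0.151 in NXT0142 and 0.381 in NXT0143), which was scored in 26 of 35 cells with *Scx* and in 36 of 88 without, and by *Pvrl3*, a cell adhesion molecule (0.299, with 0.192 and 0.369). For *Mkx* they were *Enpp2*, the enzyme that makes lysophosphatidic acid (0.327, with 0.189 in NXT0142 and 0.490 in NXT0143), *Zfhx4*, a zinc finger homeobox gene (0.299), and *Zc3h11a* (0.296). *Enpp2* was scored in 60% of the 20 cells with *Mkx* and in 19.4% of those without. For *Tnc* they were *Diablo*, a mitochondrial protein released in apoptosis (0.381, with 0.270 and 0.470 in these runs), *Gpc3*, a cell surface heparan sulfate proteoglycan (0.294), and *Ubap2* (0.290, with 0.420 in NXT0142 and 0.186 in NXT0143). *Diablo* was scored in 24 of 41 cells with *Tnc* and in 20 of 82 without. The shares of *Gpc3* (41 of 41 cells with *Tnc* against 81 of 82) and *Nfia* (35 of 35 cells with *Scx* against 84 of 88) differed little. All genes named here were picked by their coefficients over the same cells, so their shares are no separate support. *Mkx*, *Tnmd* and *Fmod* were scored in fewer than 25% of zeugopod cells, so they were not among the 4304 genes ranked. Neither *Scx* nor *Tnc* was among the 3 highest for another of the genes. Over autopod cells, few of which held these tendon genes, the coefficients with *Scx* were 0.0009 for *Nfia*, 0.135 for *Asb4* and 0.072 for *Pvrl3*. Those with *Mkx* were −0.093 for *Enpp2*, −0.082 for *Zfhx4* and 0.103 for *Zc3h11a*. Those with *Tnc* were −0.143 for *Diablo*, −0.077 for *Gpc3* and 0.055 for *Ubap2*.

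Among the tendon genes themselves the coefficients over the same cells lay between −0.174 (*Scx* with *Mkx*) and 0.188 (*Mkx* with *Fmod*). That of *Mkx* with *Fmod* was −0.019 in NXT0142 and 0.356 in NXT0143. *Fmod* with *Sox9* was at −0.247, with −0.342 in NXT0142 and −0.138 in NXT0143.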
